A study of Mus musculus with 8 samples.

Results

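The 8 genes described here encode transcription factors and a coactivator, grouped as factors of proximal tubule identity: *Hnf4a*, *Hnf4g*, *Pax8*, *Ppara*, *Ppargc1a*, *Esrra*, *Esrrg*, and *Sp1*. Not all of them are limited to that segment. They were taken by name from the 55367 genes listed in the count matrix, and all 8 were among the 20149 genes with enough reads to be tested. RNA-Seq was performed on whole kidneys of 8-week-old C57BL/6J mice, 4 of the *c-Maf* ΔTAM genotype (termed knockout mice below) and 4 *c-Maf* fl/fl controls. Both genotypes carry floxed *c-Maf* (gene symbol *Maf*) and received tamoxifen (TAM), whereas only *c-Maf* ΔTAM mice carry *CAG-Cre-ER* TM, a TAM-inducible Cre recombinase driven by the ubiquitous *CAG* promoter. Deletion was therefore not limited to the proximal tubule, and the presence of Cre cannot be told apart from the loss of *c-Maf*.

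HNF4A and HNF4G are nuclear receptors that bind the same DNA element and drive transporter, metabolic, and brush border genes of the proximal tubule. PPARA is a fatty acid-activated nuclear receptor that pairs with RXR and turns on peroxisomal and mitochondrial fatty acid oxidation, the main fuel source of this segment, while the orphan receptors ESRRA and ESRRG act with the coactivator PGC-1α, the product of *Ppargc1a*, on genes of the citric acid cycle and the respiratory chain. PAX8 is a paired-box factor of the whole nephron epithelium, and SP1 is a widely expressed factor that binds GC boxes.

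Of these 8 genes, *Ppara* was the only 1 whose expression passed the test (edgeR's quasi-likelihood test, Benjamini-Hochberg adjusted p under 0.05): it was 43.6% lower in knockout mice. Thus 1 of 8 members was called lower, against 1.58% of all tested genes, and 0 members were called higher, against 0.586% of all tested genes. In both directions 2.16% of all tested genes were called. At an unadjusted p under 0.05, 1 member was higher (*Esrrg*), against 6.58% of all tested genes, and 2 were lower (*Ppara* and *Esrra*), against 7.44%. Neither DESeq2, which called 4.49% of its tested genes in both directions, nor edgeR's exact test, which called 1.91%, called any member higher. The values of the 4 and 4 mice did not overlap for these 3 genes, against 9.79% of all tested genes. The median log2 fold change of the members was -0.15, against 0.0027 for all tested genes.

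**Figure D1:**
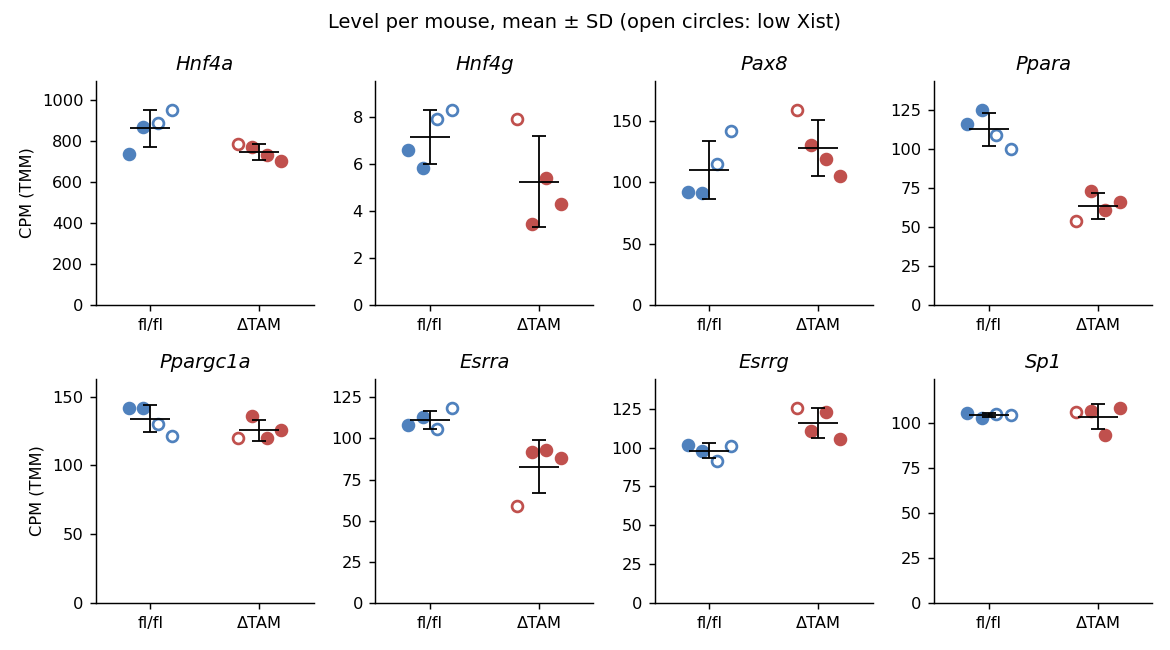
Counts scaled for library size by TMM (CPM, vertical axis, from 0) of the 8 genes in each *c-Maf* fl/fl (blue) and knockout (red) mouse, with black bars for the mean and SD (n = 4) and open circles for the 3 mice with low *Xist*. The *Ppara* values lie between 53.8 and 73.0 CPM in knockout mice and between 99.9 and 125 CPM in control mice.

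The libraries held 16649129 to 22990257 counts, and *Maf* itself lay between 9.06 and 34.5 CPM in knockout and between 305 and 380 CPM in control mice (log2 fold change -4.05, edgeR adjusted p = 0.0115). The extraction protocol in the labels names another organ, so markers of both tissues were examined. The 18 markers of proximal segments S1 and S2 summed to at least 11460.0 CPM in every library. Of 8 hepatocyte markers, 4 were tested, and these 4 summed to 133 to 1400.0 CPM in knockout and 59.6 to 613 CPM in control mice. Most of this was *Cyp2e1* (47.2 to 1398 CPM), whereas *Alb* was at 0.661 to 8.85 CPM and *Ahsg* had 0 counts in all 8 mice. *Xist*, a transcript of female cells, was nearly absent from knockout mouse 1 (2 counts) and control mice 3 and 4 (6 and 22 counts) and ranged from 17618 to 22387 in the remaining 5, with no sex given in the labels. Knockout mouse 1 also had the highest share of mitochondrial counts, 32.3%, against 17.1% to 25.5% in the other 7 mice. In whole kidney, fewer proximal tubule cells and less RNA per cell cannot be told apart.

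The promoter windows of the members are shown because c-Maf binds Maf recognition elements (MAREs), and the windows carry the letters that were searched for. RefSeq (GRCm38.p6) windows of 300 bases, from 250 bases upstream of a start site to 50 bases downstream, were matched by symbol to 7 of the 8 members, in 11 windows. Both strands were searched for the half-MARE TGCTGA, the TRE-type core TGANTCA, and the CRE-type core TGACGTCA, and also for the GC box GGGCGG. The first pair can overlap in a full element. The 4 windows below belong to *Ppara*, the gene that passed the test, and to the 3 members whose windows held a half-MARE or a TRE, with capitals for those matches and for GC boxes on either strand. They lie at chr15:85735526-85735825 (plus strand), chr2:24475550-24475849 (minus strand), chr5:51567676-51567975 (minus strand), and chr1:187608756-187609055 (plus strand, the first of 4 *Esrrg* windows).
Ppara: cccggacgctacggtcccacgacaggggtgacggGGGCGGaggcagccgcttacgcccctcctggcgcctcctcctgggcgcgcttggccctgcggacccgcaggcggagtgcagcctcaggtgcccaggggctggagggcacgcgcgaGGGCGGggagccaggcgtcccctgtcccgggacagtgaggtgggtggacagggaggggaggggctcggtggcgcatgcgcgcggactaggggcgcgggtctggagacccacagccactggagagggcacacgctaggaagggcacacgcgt
Pax8: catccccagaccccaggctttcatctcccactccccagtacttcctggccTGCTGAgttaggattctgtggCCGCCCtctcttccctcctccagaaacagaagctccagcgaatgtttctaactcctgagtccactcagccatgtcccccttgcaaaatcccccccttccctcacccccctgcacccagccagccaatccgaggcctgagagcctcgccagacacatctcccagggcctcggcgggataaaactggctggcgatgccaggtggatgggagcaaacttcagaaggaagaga
Ppargc1a: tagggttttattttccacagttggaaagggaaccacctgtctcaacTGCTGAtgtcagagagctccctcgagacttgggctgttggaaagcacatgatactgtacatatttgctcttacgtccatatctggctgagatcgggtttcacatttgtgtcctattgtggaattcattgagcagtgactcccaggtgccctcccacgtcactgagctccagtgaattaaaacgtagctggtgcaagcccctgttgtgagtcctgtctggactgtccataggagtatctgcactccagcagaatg
Esrrg: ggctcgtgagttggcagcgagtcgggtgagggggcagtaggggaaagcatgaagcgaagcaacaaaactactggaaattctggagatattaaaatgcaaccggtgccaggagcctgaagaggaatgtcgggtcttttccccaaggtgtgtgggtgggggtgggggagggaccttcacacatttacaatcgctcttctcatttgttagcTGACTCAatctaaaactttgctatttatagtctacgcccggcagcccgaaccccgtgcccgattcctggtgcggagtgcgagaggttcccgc

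The *Ppara* window was 74.7% G and C and held 2 GC boxes, starting 216 and 101 bases upstream of the start site, and none of the letters of a half-MARE, TRE, or CRE. The *Pax8* window held a half-MARE 200 bases upstream, and the *Ppargc1a* window held 1 at 204 bases upstream. The first *Esrrg* window held a TRE 42 bases upstream of the start site. Among 32851 promoter windows of the same length, 19.5% held a half-MARE, 7.81% a TRE, 1.79% a CRE, and 35.7% a GC box. The HNF4 motif CAAAGTCCA (0.475% of windows), the estrogen-related receptor element TCAAGGTCA (0.423%), and its inner half-site AGGTCA (16.3%) matched 0 of the 11 member windows. GC boxes were found in 7 of the 11 windows, which belong to 6 members, with 4 in that of *Sp1*. These are matches of letters in short windows, not sites of binding.

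In control kidneys the members spanned a wide range once levels were scaled to the exon length of each gene (CPM per kilobase). *Hnf4a* had the highest level, 179 ± 18.4 CPM per kilobase (SD, n = 4), and its lowest mouse (153) lay above every mouse of the next gene. *Ppara* (29.3 ± 2.73) and *Esrra* (25.2 ± 1.25) followed, and their ranges overlapped. *Ppargc1a* (20.3 ± 1.49), *Pax8* (18.2 ± 3.90), and *Esrrg* (15.8 ± 0.769) formed the next 3, each overlapping its neighbor. *Sp1* (12.6 ± 0.132) and *Hnf4g* (2.72 ± 0.435) were lowest and overlapped neither each other nor *Esrrg*. In knockout kidneys *Ppara* stood in position 6, at 16.5 ± 2.12 CPM per kilobase, with a range that overlapped the range of *Esrrg*, the gene before it.

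**Figure D2:**
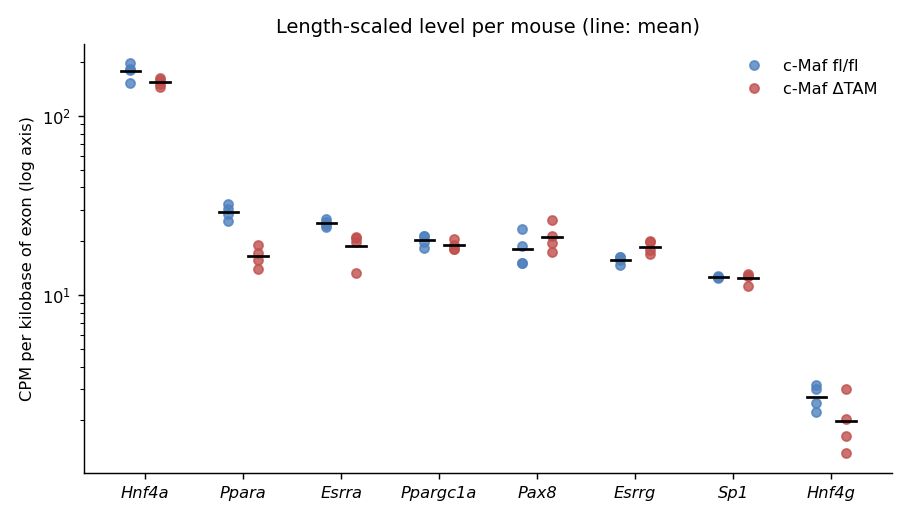
Length-scaled levels (CPM per kilobase of exon, logarithmic vertical axis) of the 8 genes in each mouse, ordered by the mean of *c-Maf* fl/fl mice (blue; knockout in red; black lines are means). *Hnf4a* lies near 179 and *Hnf4g* near 2.72 CPM per kilobase in control mice, and the *Ppara* points of the genotypes are separated.

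*Ppara* lies on chromosome 15 (GRCm38, chr15:85734983-85802819, plus strand). Its level was 53.8, 73.0, 60.7, and 66.2 CPM in knockout mice 1 to 4, and 116, 125, 109, and 99.9 CPM in control mice 1 to 4. The genotypes did not overlap. The means were 63.4 ± 8.13 and 112 ± 10.5 CPM (SD, n = 4), and the log2 fold change was -0.83 (SE 0.107, 95% interval -1.06 to -0.59, edgeR adjusted p = 0.00147). *Ppara* ranked 82 by p among the tested genes. The difference was -0.85 on the log2 scale within the 5 mice with high *Xist* (3 knockout and 2 control mice) and -0.95 within the 3 mice with low *Xist* (1 and 2 mice).

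The other peroxisome proliferator-activated receptors did not pass the test. *Ppard*, which is expressed in most tissues, was at 28.0 ± 6.53 CPM in knockout and 25.8 ± 1.01 CPM in control mice (adjusted p = 0.779). *Pparg*, the adipocyte receptor, was below 5 CPM in every mouse (adjusted p = 0.604). Of the 9 relatives examined (*Ppard*, *Pparg*, *Ppargc1b*, *Pprc1*, *Esrrb*, *Pax2*, *Sp2*, *Sp3*, and *Sp4*), 0 were called by edgeR's quasi-likelihood test, by DESeq2, or by edgeR's exact test, and 1, *Ppargc1b*, was lower at an unadjusted p under 0.05 (7.44% of all tested genes).

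**Figure D3:**
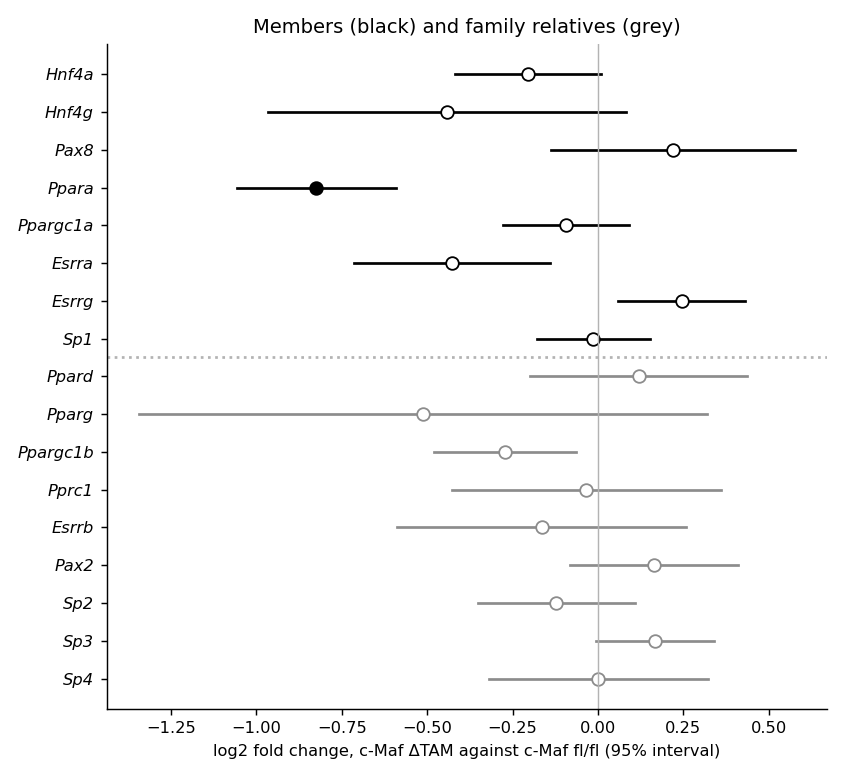
Log2 fold changes of knockout against *c-Maf* fl/fl mice (horizontal axis) with 95% intervals for the 8 genes (black) and 9 family relatives (grey); filled points passed an adjusted p of 0.05. *Ppara*, at -0.83, is the only filled point among these 17 genes.

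Among 30 genes that PPARA is known to activate, 29 were tested, of which 6 were called lower and 0 higher by edgeR's quasi-likelihood test (20.7% called, against 2.16% of all tested genes), with a median log2 fold change of -0.34. The count was 4 with upper-quartile factors or quantile normalization, where 2.07% and 2.02% of all tested genes were called. With the replicate number as a block, where 0.64% of all tested genes were called, the count was 1. At an unadjusted p under 0.05, 10 were lower, against 7.44% of all tested genes, and 1 was higher, against 6.58%. The called genes were *Cpt2* and *Acaa2*, which act in mitochondrial β-oxidation, *Ehhadh* and *Acaa1a*, which act in peroxisomal β-oxidation, *Vnn1*, which encodes a pantetheinase, and *Creb3l3*, which encodes a transcription factor of lipid metabolism. *Cpt2*, which encodes the inner-membrane carnitine palmitoyltransferase, was at 77.1, 81.4, 87.2, and 107 CPM in knockout mice and at 134, 134, 148, and 146 CPM in control mice. Its genotypes did not overlap, and its log2 fold change was -0.67 (SE 0.106, edgeR adjusted p = 0.00595). With each mouse left out in turn, *Cpt2* passed in 8 of 8 fits, *Acaa1a* and *Acaa2* in 3, and *Vnn1* and *Ehhadh* in 2.

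*Acaa2* was at 43.4, 81.9, 88.0, and 93.9 CPM against 235, 204, 182, and 155 CPM (log2 fold change -1.33, edgeR adjusted p = 0.0258). *Ehhadh* was at 440, 380, 392, and 429 CPM against 520, 507, 764, and 763 CPM (log2 fold change -0.64, edgeR adjusted p = 0.0453). The highest knockout mouse stayed below the lowest control mouse for both genes. *Acaa1a* (log2 fold change -0.57, edgeR adjusted p = 0.0232) shares 21.4% of its 36-base stretches with other genes, chiefly *Acaa1b*, which had a log2 fold change of 0.12 (adjusted p = 0.917), so their reads are uncertain. *Vnn1* had a log2 fold change of -0.79 (edgeR adjusted p = 0.0442). *Creb3l3* was at 0 to 0.22 CPM in knockout and at 1.13 to 1.23 CPM in control mice, near the limit of detection in both. It was tested only through its level in control mice. Under a filter of 10 or more counts in all 8 mice, where 2.2% of tested genes were called, 5 targets were called lower.

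Other PPARA target genes did not pass. *Cpt1a*, the outer-membrane partner of *Cpt2*, was at 339 to 470.4 CPM in knockout and 507 to 542 CPM in control mice without overlap (adjusted p = 0.170), whereas *Acadm* (log2 fold change 0.16), *Cyp4a10* (0.30), and *Pdk4* (0.29) lay above 0 with adjusted p values of 0.547, 0.351, and 0.835. *Cyp4a10* shares 40.1% of its 36-base stretches with *Cyp4a31* and *Cyp4a32*, so its reads are uncertain too. The summed level of the 29 tested genes of the list was 6189 to 6860.0 CPM in knockout and 7160.0 to 8533 CPM in control mice. Markers of proximal segments S1 and S2, in comparison, summed to 11460.0 to 16020.0 CPM against 19080.0 to 21370.0 CPM. Of these 18 markers, 9 were called lower, against 1.58% of all tested genes. Without control mouse 1, where 1.72% of all tested genes were called in both directions, 5 were called lower. The part of these markers in the PPARA target result was not tested. The count of called PPARA targets fell from 6 to 2 when knockout mouse 2, knockout mouse 3, or control mouse 3 was left out, and to 3 without control mouse 1. Those fits called 1.24%, 1.16%, 1.39%, and 1.72% of all tested genes, in that order, against 2.16% with all mice. When *Xist* was added as a covariate, where 6.90% of all tested genes were called, the count of PPARA targets was 11, and 1 target was called higher. In the mice with high *Xist* alone, where 3.75% of genes were called, 8 targets were called lower and 3 higher.

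**Figure D4:**
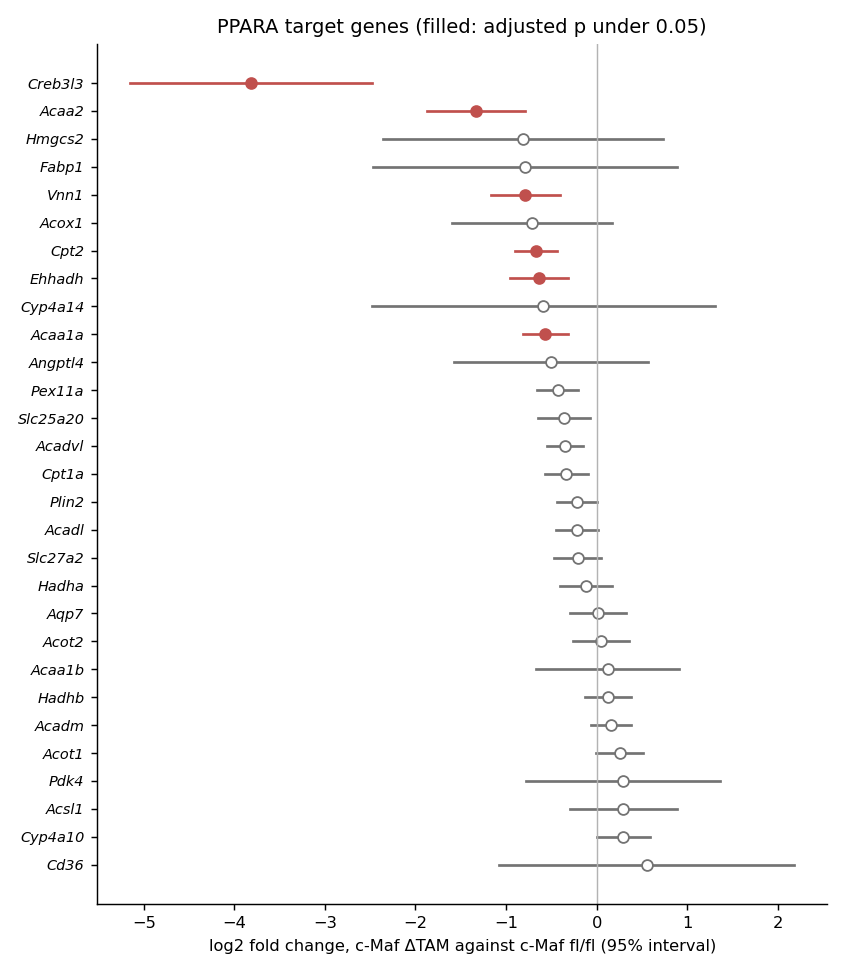
Log2 fold changes (horizontal axis, knockout against *c-Maf* fl/fl) with 95% intervals of the 29 tested PPARA target genes, ordered by value; red filled points passed an adjusted p of 0.05. Of the 6 filled points, 5 lie between -1.33 (*Acaa2*) and -0.57 (*Acaa1a*), the lowest point is *Creb3l3*, whose value rests on at most 4 counts per knockout library and is no measured fold, and 10 of the 29 genes lie above 0.

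The estrogen-related receptors lay in opposite directions, and neither passed the test. *Esrra* was at 58.7, 91.7, 93.0, and 87.9 CPM in knockout mice 1 to 4, and at 108, 113, 106, and 118 CPM in control mice. The genotypes did not overlap, and knockout mouse 1 stood well below its group. The log2 fold change was -0.43 (SE 0.131, 95% interval -0.71 to -0.14, edgeR adjusted p = 0.145), and it was -0.29 without that mouse. Within the mice with high *Xist* the difference was -0.28, and within those with low *Xist*, where knockout mouse 1 is the only knockout, it was -0.93. With *Xist* as a covariate *Esrra* passed the test at a log2 fold change of -0.50 (edgeR adjusted p = 0.00718).

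*Esrrg* was at 125, 111, 123, and 105 CPM in knockout mice 1 to 4, and at 101.6, 97.7, 91.2, and 101 CPM in control mice. All 4 knockout mice were above all control mice, by a margin of a few CPM at the nearest pair. The log2 fold change was 0.25 (SE 0.0846, 95% interval 0.06 to 0.43, edgeR adjusted p = 0.203), and with *Xist* as a covariate the adjusted p was 0.0587. The log2 ratio of *Esrra* to *Esrrg* counts, which does not depend on library scaling, was -1.10, -0.27, -0.40, and -0.26 in knockout mice and 0.09, 0.21, 0.21, and 0.23 in control mice. *Esrra* counts were thus below *Esrrg* counts in every knockout mouse and above them in every control mouse. The exons of *Esrrg* are longer (6208 against 4414 bases), so this order of read counts is not an order of levels. Per kilobase, *Esrra* was above *Esrrg* in knockout mice 2 to 4 (20.8, 21.1, and 19.9 against 17.8, 19.8, and 17.0 CPM), and below it in knockout mouse 1 (13.3 against 20.2). The mean log2 ratios differed by -0.69, and by -0.46 in the mice with high *Xist*. For all 8 mice the 2-sided exact permutation test over 70 assignments gave p = 0.0286, which is the lowest value possible. The value adjusted over 3 such ratios was 0.0858. *Esrrb*, the third receptor of the family, was at 58.0 ± 13.9 CPM in knockout and 65.0 ± 12.1 CPM in control mice (adjusted p = 0.766).

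*Ppargc1a*, the coactivator of these receptors, was at 120.0, 136, 120.1, and 126 CPM in knockout mice 1 to 4, and at 142, 142, 130.2, and 121 CPM in control mice. The ranges overlapped over most of their width. The log2 fold change was -0.09 (SE 0.0845, 95% interval -0.28 to 0.09, edgeR adjusted p = 0.694), an interval that does not reach the change of *Ppara*. Its relative *Ppargc1b* was at 27.1 to 33.0 CPM in knockout and 33.7 to 39.2 CPM in control mice without overlap (log2 fold change -0.27, edgeR adjusted p = 0.209). The log2 ratio of *Ppargc1a* to *Ppargc1b* counts differed by 0.18 between genotypes (2-sided exact permutation test, p = 0.171, adjusted over the 3 ratios 0.256), by 0.10 without control mouse 4, and by -0.03 in the mice with high *Xist*.

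Of 33 tested target genes of the estrogen-related receptors and PGC-1α, 0 were called by edgeR's quasi-likelihood test, 4 were lower and 0 higher at an unadjusted p under 0.05 (against 7.44% and 6.58% of all tested genes), and DESeq2 called 3 lower (against 4.49% called in both directions). Their median log2 fold change was -0.11, and 25 of 33 lay below 0. Adding *Xist* as a covariate gave 3 called lower (against 6.90% of all tested genes called). The list held subunits of every respiratory complex, and its values ran from -0.49 to 0.41, a narrower range than that of the PPARA targets.

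*Hnf4a* was at 788, 773, 731, and 704 CPM in knockout mice 1 to 4, and at 740.4, 872, 889, and 952 CPM in control mice. Control mouse 1 lay within the knockout range, so the groups overlapped. The log2 fold change was -0.20 (SE 0.0984, 95% interval -0.42 to 0.01, edgeR adjusted p = 0.386). *Hnf4g*, with 67 to 155 counts per knockout library and 129 to 156 per control library, was the most thinly covered member. It was at 7.89, 3.44, 5.38, and 4.28 CPM in knockout mice and at 6.57, 5.82, 7.92, and 8.27 CPM in control mice. The 3 knockout mice with high *Xist* were below all control mice, and mouse 1 was among the controls. Its log2 fold change was -0.44 (SE 0.240, 95% interval -0.97 to 0.08, edgeR adjusted p = 0.452), and -0.71 without that mouse. The log2 ratio of *Hnf4a* to *Hnf4g* counts differed by 0.29 (2-sided exact permutation test, p = 0.343, adjusted over the 3 ratios 0.343), by 0.10 without knockout mouse 2 and by 0.48 without knockout mouse 1.

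Among 25 genes with known HNF4 control, 22 were tested, of which 4 were called lower and 0 higher by edgeR's quasi-likelihood test (18.2% called, against 2.16% of all tested genes), with a median log2 fold change of -0.17. DESeq2 and edgeR's exact test each called 5 lower and 1 higher (against 4.49% and 1.91% of their tested genes in both directions), a fit of the 5 high-*Xist* mice called 6 lower and 2 higher (against 3.75%), and without knockout mouse 4 there were 3 lower and 1 higher (against 1.77%). With the replicate number as a block, where 0.64% of all tested genes were called, 2 were lower. The called genes were *Slc5a2* (Sglt2) and *Slc2a2* (Glut2), the glucose transporters of the early proximal tubule, *Slc34a1*, its phosphate transporter, and *Ttr*, the carrier of thyroxine. *Ttr* had 4 to 59 counts in knockout mice. Under a filter of 10 or more counts in all 8 mice, where 2.2% of tested genes were called, 3 targets were called. The first 3 called genes are also among the S1 and S2 markers. From ChIP and luciferase assays, the paper concludes that c-Maf itself directly regulates *Slc5a2* and *Slc2a2*. The part of HNF4 in these calls was not tested. *Slc34a1* ranged from 1481 to 1972 CPM in knockout and from 3501 to 4532 CPM in control mice (log2 fold change -1.23, edgeR adjusted p = 0.000217). At an unadjusted p under 0.05, 6 HNF4 targets were lower and 2 were higher, against 7.44% and 6.58% of all tested genes.

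*Pax8* was at 158, 130.5, 118, and 105 CPM in knockout mice 1 to 4, and at 92.3, 91.6, 115, and 142 CPM in control mice. The genotypes overlapped, and within each genotype the mice with low *Xist* had the highest levels. The log2 fold change was 0.22 (SE 0.162, 95% interval -0.14 to 0.58, edgeR adjusted p = 0.602). It was 0.10 without knockout mouse 1 and 0.37 without control mouse 4. Within the mice with high *Xist* the difference was 0.35 and within those with low *Xist* 0.31 on the log2 scale. Tested in the 5 mice with high *Xist* alone, *Pax8* passed at 0.36 (edgeR adjusted p = 0.0494), and with *Xist* as a covariate in all mice it did not (adjusted p = 0.0514). The mouse with the highest *Pax8* level in each genotype also had the highest mitochondrial share in that genotype (32.3% and 25.5%), and the part of this in the result was not tested. Exons of *Pax8* share 6.06% of their bases with the transcript *Gm13415* on the other strand, and reads there were not counted for either. *Pax2*, its paralog, was at 73.8 ± 10.1 CPM in knockout and 65.9 ± 6.85 CPM in control mice (adjusted p = 0.568). Of 8 *Pax8* targets of thyroid and kidney, 5 were tested and 0 were called by any test run, with 0 also at an unadjusted p under 0.05.

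*Sp1* had the smallest difference. It was at 106, 106, 93.4, and 108 CPM in knockout mice 1 to 4, and at 105, 103, 105, and 104 CPM in control mice. The control mice lay within 3 CPM of each other, and all but 1 knockout mouse lay just above them. The log2 fold change was -0.01 (SE 0.0763, 95% interval -0.18 to 0.15, edgeR adjusted p = 0.963). Its sign changed with the scaling, to 0.03 with upper-quartile factors and 0.04 with quantile normalization. *Sp2*, *Sp3*, and *Sp4* had adjusted p values of 0.673, 0.378, and 0.998.

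**Figure D5:**
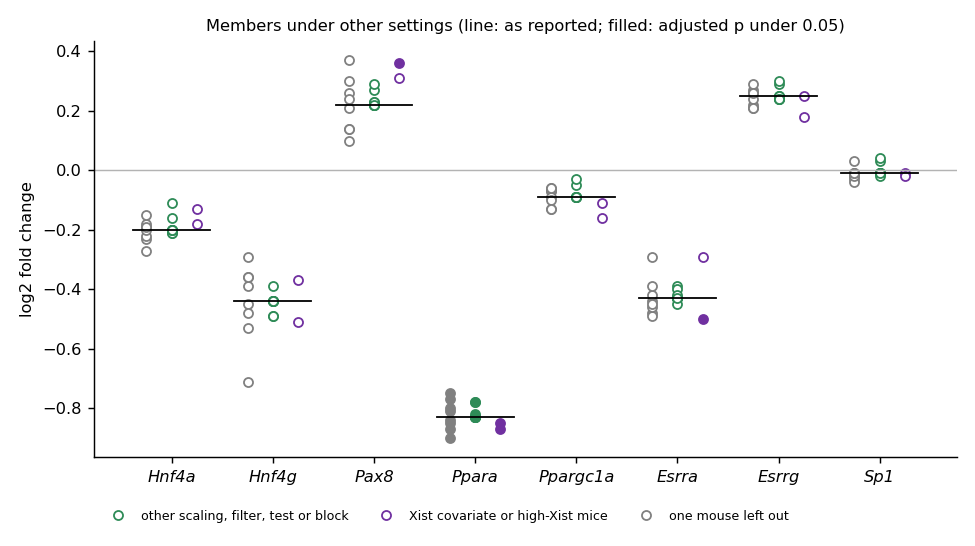
Log2 fold changes (vertical axis) of the 8 genes under 19 other settings each: 1 mouse left out (grey), another scaling, filter, test, or block (green), and the fits that use *Xist* (purple). Black lines give the reported values and filled points passed an adjusted p of 0.05. *Ppara* is filled throughout, between -0.90 and -0.75, and *Esrra* and *Pax8* are each filled once.

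The receptors need partners, so 19 partners and coregulators were examined, of which 18 were tested. None was called by edgeR's quasi-likelihood test, DESeq2, or edgeR's exact test, and at an unadjusted p under 0.05, 2 were lower, against 7.44% of all tested genes, and 0 higher. These 2 were *Rxra* and *Rxrb*, the heterodimer partners of PPARA, named here after their values were seen. *Rxra* was at 122 to 135 CPM in knockout and 139 to 178 CPM in control mice (log2 fold change -0.30, edgeR adjusted p = 0.190). *Rxrb* was at 32.6 to 38.9 CPM against 40.4 to 44.4 CPM (log2 fold change -0.25, edgeR adjusted p = 0.204). The genotypes overlapped for neither gene. Of the 18 tested partners, only these 2 had no overlap, against 9.79% of all tested genes.

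The genes whose levels followed each member most closely over the 8 mice were found among 9749 others (9750 for *Hnf4g*) with a mean of at least 10 CPM, by the root mean square difference of centered log2 CPM. For *Ppara* they were *Slc7a9* (0.0712), *Trim35* (0.0849), and *Tln2* (0.106). Their log2 fold changes were -0.84, -0.81, and -0.71, near that of *Ppara*, which follows from choosing them by profile over the same mice. The nearest to *Esrra* were *Aldh1l1* (0.0773), *Tmed1* (0.0814), and *Tbxas1* (0.0827). Those of *Esrrg* were *Kif2a*, *Camta1*, and *Hebp1* (0.0538 to 0.0579), and those of *Pax8* were *Fth1*, *Gipc2*, and *Arhgap42* (0.066 to 0.0736). The nearest to *Hnf4a* were *Swi5*, *Cd63*, and *Cacul1* (0.0456 to 0.0477), and to *Hnf4g* *2310030G06Rik*, *Npr2*, and *Gm4973* (0.125 to 0.186). Those of *Ppargc1a* were *Gpaa1*, *Atp2c1*, and *Nsf* (0.0299 to 0.0395), and those of *Sp1* were *Cdkn1b*, *Jmy*, and *Phlpp2* (0.0301 to 0.0335).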

How the data were processed

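RNA-Seq of whole kidneys covered 4 *c-Maf* ΔTAM and 4 *c-Maf* fl/fl mice. The deposited values are raw counts, which the authors made with featureCounts 2.0.1 on Ensembl release 102 exons of GRCm38, per the file header. The submitters' processing notes name Subread 2.0.2 and edgeR 3.36.0. The header does not name the aligner behind these counts, and the paper's methods describe mapping with CLC Genomics Workbench to mm10. The kit preserves strand, but strand was not used in counting, each read of a pair was counted, and reads on exons of more than 1 gene were left out. These steps can lower the counts of genes that overlap others. The 8 libraries are separate mice, every pair within a genotype differed by more than sampling noise, and 0 columns were left unused.

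Genes were kept by filterByExpr, scaled by TMM, and tested with edgeR's robust quasi-likelihood test (edgeR 4.0.16, limma 3.58.1, R 4.3.3) without covariates, as the study's methods also used an edgeR test. Adjusted p values are Benjamini-Hochberg values over all 20149 genes. Each standard error is the size of the log2 fold change over the root of the F statistic. Log2 ratios used 2 added reads and exact permutation tests. Levels per kilobase divide CPM by the deposited exon length. The code was tested on simulated counts.

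The members, gene lists, and tests were chosen with earlier results of these data known. Named genes were *Maf*, the members and their relatives, up to 4 called genes per list and direction with the smallest p, and 3 genes per member with the nearest pattern; other names were added after their values were seen. In the PPARA list these include all genes beyond the 4 called genes with the smallest p. The alternatives were DESeq2 1.42.0, the exact test of edgeR, limma-trend after quantile normalization, scaling by RLE or by the upper quartile, other count filters, the replicate number as a block, *Xist* as a covariate, the mice with over 1000 *Xist* counts, removal of mitochondrial and ribosomal RNA genes, and each mouse left out. The exact test kept genes with at least 5 counts in total. Counts were of reads without molecular identifiers. Figures were drawn with matplotlib 3.10.9. Protein sequences were not used here.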

Additional observations from a re-analysis of the deposited data

Results flagged for a closer look

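In groups of 4 mice, a value was singled out when its gap to the nearest mouse exceeded Dixon's 95% limit for its share of the group's range, and 40 groups were examined, so that chance at about 5% of groups gives 2. There were 4. The *Esrra* level of knockout mouse 1 was 58.7 CPM, against 87.9 to 93.0 CPM in the other 3 knockout mice. The same mouse had a log2 ratio of *Esrra* to *Esrrg* counts of -1.10 (-1.095), against -0.40 to -0.26 in the other 3, which rests on the same counts. It was also the only knockout mouse with low *Xist* and the library with the most mitochondrial counts (32.3%), and the part of either in these values was not tested. In control mouse 1 the log2 ratio of *Esrra* to *Esrrg* was 0.0916, against 0.21 to 0.23 in the other 3 control mice. In control mouse 2 the log2 ratio of *Hnf4a* to *Hnf4g* counts was 7.20, against 6.79 to 6.83 in the other 3.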

How the results depend on the processing

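*Ppara* passed the test under all 19 other settings (log2 fold change -0.90 to -0.75, adjusted p at most 0.0248), and *Hnf4a*, *Hnf4g*, *Ppargc1a*, *Esrrg*, and *Sp1* passed under none. *Esrra* passed with the *Xist* covariate (-0.50), which makes 2 members called lower where 6.90% of all tested genes were called, and *Pax8* in the mice with high *Xist* (0.36), which makes 1 member called higher where 3.75% were called, against 2.16% in the test reported. With 1 mouse left out, 1 member was called lower and 0 higher in each of the 8 fits, and the ranges were -0.27 to -0.15 for *Hnf4a*, -0.71 to -0.29 for *Hnf4g*, 0.10 to 0.37 for *Pax8*, -0.90 to -0.75 for *Ppara*, -0.13 to -0.06 for *Ppargc1a*, -0.49 to -0.29 for *Esrra*, 0.21 to 0.29 for *Esrrg*, and -0.04 to 0.03 for *Sp1*. *Sp1* turned to 0.03 with upper-quartile factors, 0.04 with quantile normalization, and 0.03 without knockout mouse 3. These scalings moved the median of all genes to 0.0468 and 0.0147. The called PPARA targets ranged from 2 to 5 with 1 mouse left out, were 11 with the *Xist* covariate and 1 with the replicate block. The called HNF4 targets were 2 with the replicate block and 3 to 4 with 1 mouse left out. Targets of the estrogen-related receptors and PGC-1α called lower were 3 with DESeq2, 2 with genes of at least 1 count in any mouse, 3 with the *Xist* covariate, 1 in the mice with high *Xist*, and 0 with any 1 mouse left out. Of all tested genes, DESeq2 called 4.49%, the fit of genes with at least 1 count 1.59%, and that of the mice with high *Xist* 3.75%. The *Xist* covariate gave 6.90%, the replicate block 0.64%, and the fits with 1 mouse left out 1.16% to 2.2%. The difference in the log2 ratio of *Esrra* to *Esrrg* was -0.77 to -0.50 with 1 mouse left out and -0.46 in the mice with high *Xist*, and that of *Ppargc1a* to *Ppargc1b* was -0.03 in the mice with high *Xist*. By CPM without length, 3 of 8 members kept their place in the order of levels. The cause of these changes was not tested. The replicate numbers did not pair the mice (correlations of deviations -0.373, 0.152, -0.11, and -0.331 for numbers 1 to 4), and with the replicate block *Ppara* was at -0.83 (adjusted p = 0.0248) and 129 genes were called, against 436 without it. Depth limits *Hnf4g*, with at most 156 counts per library, most.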

Other observations

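Of 27 other transcription factors of the kidney, 0 were called by edgeR's quasi-likelihood test, 2 were lower and 1 was higher at an unadjusted p under 0.05 (against 7.44% and 6.58% of all tested genes), and their median log2 fold change was -0.12. DESeq2 and edgeR's exact test each called 1 lower, as did the test without control mouse 4 (against 4.49%, 1.91%, and 1.47% of their tested genes). With the *Xist* covariate, where 6.90% of all tested genes were called, 2 were called higher and 1 lower, and in the mice with high *Xist*, where 3.75% were called, 1 in each direction. Named after its values were seen, *Klf15*, a regulator of amino acid and lipid metabolism, was at 47.5 to 72.3 CPM in knockout and 76.5 to 140.0 CPM in control mice (log2 fold change -0.89, edgeR adjusted p = 0.0688). Among 10 markers of segment S3, *Acox2*, a peroxisomal oxidase, was called higher (log2 fold change 0.64, edgeR adjusted p = 0.0387) and 0 were called lower by edgeR's quasi-likelihood test, with 3 higher and 1 lower at an unadjusted p under 0.05 (against 6.58% and 7.44% of all tested genes). DESeq2, with 4.49% of genes called, called 2 higher and 1 lower, and edgeR's exact test, with 1.91% called, 1 in each direction. Named after its values were seen, *Acmsd*, an enzyme of tryptophan breakdown, had the largest difference of the list, at 4.82 to 23.0 CPM in knockout and 62.6 to 132 CPM in control mice (log2 fold change -2.67, edgeR adjusted p = 0.0673). Of 12 tested tubular injury genes, *Krt8* was called lower (log2 fold change -0.72, edgeR adjusted p = 0.00517). Of the 12, 9 lay above 0 (up to 0.97), with 2 higher and 1 lower at an unadjusted p under 0.05 (against 6.58% and 7.44%), and *Havcr1* and *Lcn2*, the usual markers of tubular damage, did not pass (adjusted p = 0.963 and 0.591). Among 8 endothelial markers, *Kdr* was called lower (log2 fold change -0.37, edgeR adjusted p = 0.0450). Beside these single calls in the S3, injury, and endothelial lists, the same test called 1.58% of all tested genes lower and 0.586% higher. *Kdr* lost its call in each of the 8 fits with 1 mouse left out, and *Acox2* in 6 of 8. With the replicate block *Krt8*, *Acox2*, and *Kdr* all lost their calls, and *Kdr* also lost it with upper-quartile factors, with quantile normalization, by edgeR's exact test, and in the mice with high *Xist*. Markers of 8 other cell types or segments (thick limb, collecting duct, distal convoluted tubule, podocyte, macrophage, lymphocyte, fibroblast, and hepatocyte) had 0 calls by edgeR's quasi-likelihood test. In that order, 8, 10, 7, 7, 8, 2, 7, and 4 markers were tested, with 7 lymphocyte and 8 hepatocyte markers listed. At an unadjusted p under 0.05 these 8 lists held 3 higher and 2 lower genes, against 6.58% and 7.44% of all tested genes. DESeq2, with 4.49% of genes called, called 1 distal convoluted tubule and 1 hepatocyte marker lower. By edgeR's exact test, with 1.91% called, 1 hepatocyte marker was lower. With the *Xist* covariate 1 thick limb and 1 hepatocyte marker were called lower, against 6.90% of all tested genes called in both directions. In the mice with high *Xist*, where 3.75% of genes were called, 1 thick limb marker was called higher and 1 hepatocyte marker in each direction. Leaving out knockout mouse 1 gave 1 thick limb marker called higher, knockout mouse 2 gave 1 hepatocyte marker called lower, and knockout mouse 3 gave 1 distal convoluted tubule marker called lower. Those 3 fits called 2.2%, 1.24%, and 1.16% of all tested genes.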
